A study of Ovis aries with 6 samples.

Results

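The endothelium described here was the set of barcodes in which the summed UMI of APLN, TNFRSF11B and MASP1 stood above those of the other endothelial marker sets in the ovaries of 6 Hu ewes. It held 205 of the 14511 blood endothelial barcodes and of the 52290 deposited barcodes. Members were chosen by measured values: at least 1000 UMI, at most 10% of them from mitochondrial genes, a sum of PECAM1, CDH5 and KDR of at least 5 and above that of DCN and PTPRC, and fewer than 3 UMI of MMRN1. The sum of APLN, TNFRSF11B and MASP1 had to be at least 2 and above each of 3 other sums, which are SELP, PLA1A and ABCG2 (the SELP class where that sum led), ESM1, OIT3 and APLNR (the ESM1 class) and CA4, PPP1R1B and PLSCR5 (the CA4 class). These 12 genes and those of the other limits were therefore selected on. They are described below without a test between classes, as is ADAMTS5, which the rule did not use but which was named with the class as a marker.

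One ovary of each ewe, taken in estrus and digested with collagenase and trypsin, gave 1 droplet-based single-cell library. HLS1, HLS2 and HLS3 are the ewes whose label gives a litter size of at least 3, and LLS1, LLS2 and LLS3 are those whose label gives a litter size below 2. Each ewe is 1 library, so ewe and library cannot be told apart.

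Endothelial tip cells lead a growing vessel sprout. They respond to VEGF through KDR, carry the NOTCH ligand DLL4 and release apelin, the peptide encoded by APLN, whose receptor APLNR lies on neighbouring endothelium. The ovary is one of the few adult organs in which vessels grow in every cycle, around follicles and into the corpus luteum. TNFRSF11B encodes osteoprotegerin, a secreted decoy receptor for the ligands RANKL and TRAIL. MASP1 is a serine protease of the lectin pathway of complement, and ADAMTS5 is a secreted protease that cleaves large proteoglycans such as versican.

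HLS1, HLS2 and HLS3 gave 12, 57 and 25 members and LLS1, LLS2 and LLS3 gave 47, 4 and 60. Their median depth was 16528.5, 10921 and 17078 UMI in HLS1, HLS2 and HLS3 and 11996, 12790.5 and 10651.5 UMI in LLS1, LLS2 and LLS3. Over all ewes it was 11645 UMI in members, 12310.5 in the ESM1 class, 9209 in the SELP class and 8883 in the CA4 class. Pooled over ewes, members were thus nearly as deep as the ESM1 class and deeper than the other 2 classes. Within ewes, members were deeper than the ESM1 class in HLS1, HLS3 and LLS2 and shallower in HLS2, LLS1 and LLS3. The median mitochondrial share was 4.45% in members, 4.22% in the ESM1 class, 4.66% in the SELP class and 4.47% in the CA4 class.

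HLS2 and LLS1 stood apart, since they held 4325 of the 4590 barcodes of the ESM1 class (94.2%), while members came from all 6 ewes. Any 2 libraries shared between 13 and 28 barcode sequences out of 7992 to 9135. Doublets were not removed, and a doublet score marked 15 of the 205 members (7.32%), against 5.19% of the ESM1 class, 7.19% of the SELP class and 6.54% of the CA4 class. UMI of each class were summed per ewe and are given in CPM, the UMI of a gene scaled to the same total in every sum, and only sums of at least 10 barcodes entered tests, which left out the 4 members of LLS2.

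**Figure D1:**
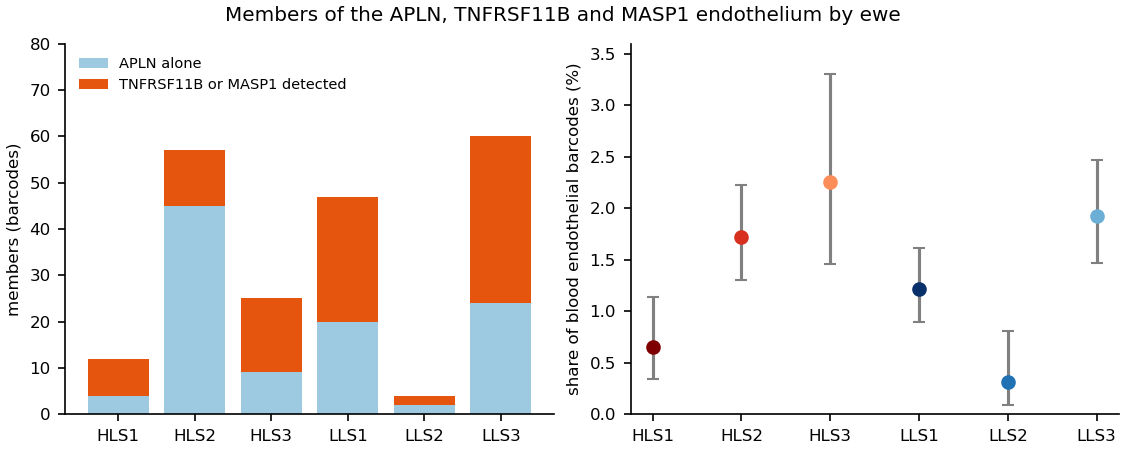
Left, number of member barcodes in each ewe, split into those with APLN alone and those with a UMI of TNFRSF11B or MASP1. Right, members as a percentage of the blood endothelial barcodes of the ewe with exact 95% binomial intervals. The shares run from 0.316% in LLS2 (interval 0.0862 to 0.808%) to 2.25% in HLS3 (1.46 to 3.31%), with HLS and LLS ewes overlapping.

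APLN carried most of the rule. It stood at 519.5, 705 and 565 CPM in HLS1, HLS2 and HLS3 and 648, 1446 and 839 CPM in LLS1, LLS2 and LLS3 in members, and at 22.1 to 182 CPM in the ESM1 class, 29.7 to 60.6 CPM in the SELP class and 83.5 to 149 CPM in the CA4 class. The lowest member value lay above the highest of any other class. APLN was detected in 192 of 205 members (93.7%, exact 95% interval 89.4 to 96.6%), and in 104 of them neither TNFRSF11B nor MASP1 was seen.

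TNFRSF11B, found in 46 members (22.4%), stood at 359.7, 38.0 and 92.5 CPM in HLS1, HLS2 and HLS3 and 160.3, 0 and 43.7 CPM in LLS1, LLS2 and LLS3. MASP1, found in 78 members (38.0%), stood at 0, 36.6 and 94.6 CPM in HLS1, HLS2 and HLS3 and 85.0, 57.1 and 116 CPM in LLS1, LLS2 and LLS3. Both genes were thus uneven among ewes: HLS1 had the highest TNFRSF11B level and no UMI of MASP1, and the 4 members of LLS2 had no UMI of TNFRSF11B. In the other 3 classes TNFRSF11B did not pass 17.7 CPM, its level in the SELP class of LLS1, and MASP1 did not pass 27.1 CPM, its level in the ESM1 class of HLS3. All 3 genes together were detected in 20 members.

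ADAMTS5, which the rule did not use, stood at 524, 215 and 539 CPM in HLS1, HLS2 and HLS3 and 538, 476 and 299 CPM in LLS1, LLS2 and LLS3 in members. Its highest value in another class was 149 CPM, in the 32 ESM1 class barcodes of HLS3, below the lowest member value. The gene was found in 90 of 205 members (43.9%). It was not particular to them, since 316 of 735 barcodes with at least 3 UMI of the lymphatic gene MMRN1 also held it (43.0%, at a median depth of 7304 UMI).

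**Figure D2:**
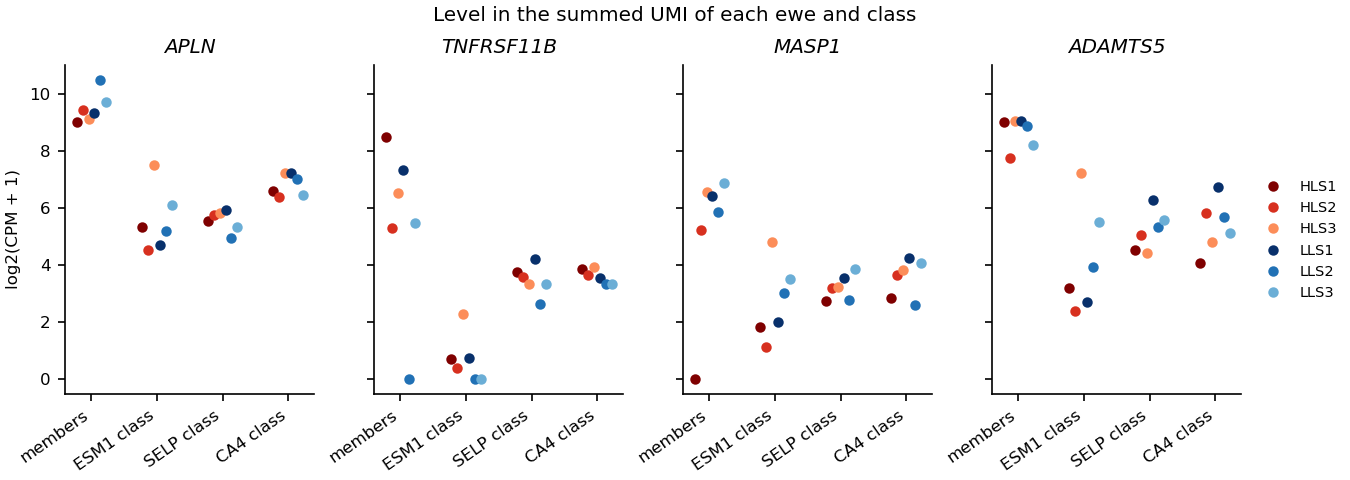
Level of APLN, TNFRSF11B, MASP1 and ADAMTS5 as log2(CPM + 1) in the summed UMI of members and of the 3 other classes, 1 point per ewe. APLN and ADAMTS5 are above every other class in all 6 ewes, whereas TNFRSF11B is at 0 in LLS2 and MASP1 at 0 in HLS1.

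The genes of the other sums were not absent from members. ABCG2, a membrane efflux transporter of the SELP set, stood at 232 to 837 CPM in members and at 1185 to 2256 CPM in the SELP class. SELP, the adhesion molecule P-selectin, stood at 39.1 to 152 CPM in members, 10.7 to 43.0 CPM in the ESM1 class and 153 to 379 CPM in the SELP class. APLNR, the apelin receptor, stood at 35.5 to 97.6 CPM in members and 93.6 to 227 CPM in the ESM1 class. Ligand and receptor were thus both found in the summed members of every ewe.

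KDR, which encodes the main VEGF receptor and belonged to the endothelial gate, stood at 159.9, 643 and 189 CPM in HLS1, HLS2 and HLS3 and 465, 514 and 382 CPM in LLS1, LLS2 and LLS3 in members. Its level was 515 to 1083 CPM in the ESM1 class. PECAM1, which codes for an endothelial junction protein, stood at 1088 to 1426 CPM in members against 664 to 1410.3 CPM there. Endothelial genes outside the rule were present in members of all 6 ewes, with VWF at no less than 298 CPM, ERG at no less than 57.1 CPM and TIE1 at no less than 67.8 CPM. In stromal barcodes, defined by at least 5 UMI of DCN and no UMI of the endothelial genes or PTPRC, these 3 genes did not pass 24.0, 4.77 and 5.68 CPM.

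Most blood endothelial barcodes in which the 3 genes summed to at least 2, which 1 gene alone could reach, were not members. Of 1972 blood endothelial barcodes with a sum of at least 2, 1767 had another sum that was equal (51 barcodes) or higher and fell outside the rule. APLN stood at 704 CPM in the pooled members, 320 CPM in the 51 tied barcodes and 188 CPM in all 1767. Just inside the threshold lay 17 members with a sum of exactly 2, at a median depth of 6451 UMI, with APLN at 198 CPM and ADAMTS5 at 14.7 CPM. Just outside lay 17 barcodes with a sum of 1 and the other sums at 0, at a median depth of 4927 UMI, with APLN at 94.97 CPM and ADAMTS5 at 8.63 CPM.

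UMI of the 3 genes also occurred at low shares in stromal, immune and lymphatic barcodes. APLN was found in 1.74% of 8750 stromal barcodes (median depth 6870.5 UMI), 1.02% of 490 immune barcodes with at least 3 UMI of PTPRC (2945 UMI) and 2.04% of lymphatic barcodes. In the blood endothelial classes it was found in 18.9% of the ESM1 class, 20.7% of the SELP class and 31.5% of the CA4 class. After each barcode had been thinned to 3000 UMI, which left out 1 member and 29, 206 and 36 barcodes of these classes, the shares were 81.4% in members and 6.60%, 8.87% and 17.0% in the same order. TNFRSF11B was found in 0.423% and MASP1 in 2.95% of stromal barcodes, the latter beside 2.94% of the ESM1 class. In barcodes thinned to 3000 UMI, which left out 1369 stromal barcodes, MASP1 was found in 1.59% of stromal barcodes and 0.767% of the ESM1 class.

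When the barcodes were chosen by only 2 of the 3 genes, the third could be read as a description. The other 3 classes stayed those of the full rule, which left out barcodes led by the sum of all 3 genes. The held-out gene thus helped to set the pool of the other classes, and no conclusion is drawn from the direction. APLN stood at 287 CPM in the 31 barcodes chosen by TNFRSF11B and MASP1, against 42.4 CPM in the pooled other 3 classes, and it was above that pool in 4 of the 5 ewes with such barcodes. TNFRSF11B stood at 37.1 CPM in 176 barcodes chosen by APLN and MASP1, against 6.76 CPM, with 340 CPM in HLS1 and 4.83 CPM in HLS3. MASP1 stood at 60.0 CPM in 181 barcodes chosen by APLN and TNFRSF11B, against 6.52 CPM, and was at 0 in HLS1. Each held-out gene was above the pool of the other classes in LLS1 and LLS3, and in each of the other 4 ewes at least 1 of them was not or could not be read.

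The label tip-type was checked against 30 genes known from tip cells, none of which the rule used. Against the mean of the 3 other classes, 3 of the 30 rose in members (9.87% of all genes tested rose), 4 fell (9.53% of all genes fell) and 23 were not called, with a median log2 difference of -0.09 beside -0.01 for all 10446 genes tested. VEGFC, a growth factor for lymphatic and blood endothelium, rose by 1.98 and the VEGF co-receptor NRP2 by 0.39 on the log2 scale. DLL4, the NOTCH ligand of tip cells, fell by 1.01, the arterial ligand EFNB2 by 1.37, the adrenomedullin receptor component RAMP3 by 0.98 and the guidance receptor ROBO4 by 0.36. In this comparison the shares of rises and falls were near those of all genes, so here the list as a whole did not bear out the label. The fall of DLL4 was not called against the ESM1 class (-0.78, adjusted p = 0.0814, edgeR). Without the cycling barcodes defined below, an alternative chosen after seeing the data, 5 of 29 tip genes rose and 1 fell, with a median of 0.03. In all, 552 genes rose and 455 fell in that setting. The number of genes tested there is not reported here, so the statement on the label covers only the comparison with cycling barcodes kept.

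DLL4 stood at 35.5, 105 and 22.6 CPM in HLS1, HLS2 and HLS3 and 24.5, 38.1 and 47.5 CPM in LLS1, LLS2 and LLS3 in members and at 85.7 ± 33.8 CPM in the ESM1 class, 102 ± 17.3 CPM in the SELP class and 97.6 ± 18.5 CPM in the CA4 class (mean ± SD, n = 6 ewes). It was lower in members in 4 of 5 ewes and higher in HLS2. ANGPT2, which loosens vessel walls, stood at 48.8, 133 and 51.4 CPM in HLS1, HLS2 and HLS3 and 40.9, 228 and 86.1 CPM in LLS1, LLS2 and LLS3 in members with a log2 difference of -0.40 ± 0.36, adjusted p = 0.474 (edgeR). PDGFB, the growth factor that recruits mural cells, stood at 44.4 to 135 CPM with a log2 difference of -0.15 ± 0.14, adjusted p = 0.477 (edgeR). Among the other tip genes that were not called, the log2 difference ran from -1.19 for the netrin receptor UNC5B to 1.498 for the growth factor PGF, with -0.21 for NRP1, 0.81 for the chemokine receptor CXCR4, -0.13 for NID1, -0.09 for adrenomedullin (ADM) and -0.09 for the actin-bundling protein FSCN1.

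Against the ESM1 class alone, 10 of the 30 tip genes were lower in members and 3 were higher, with a median of -0.56, while 4.12% of all genes were lower and 5.92% higher. The 10 included PDGFB (-1.16), NRP1 (-0.94), FLT4 (-1.95), the basement membrane gene NID1 (-1.77), the growth factor carrier IGFBP3 (-2.23) and EFNB2 (-1.94). PGF (3.197) and the insulin receptor INSR (1.54) were among the higher ones. Barcodes in which the sum of ESM1, OIT3 and APLNR led were put in the ESM1 class by the rule. Genes that go with ESM1 may thus have been sorted by the gate, and no conclusion on the label is drawn from this contrast. Against the SELP class 6 tip genes were higher and 4 lower, with a median of 0.37, while 17.0% of all genes were higher and 17.5% lower. Against the CA4 class 6 were higher and 4 lower, with a median of 0.30, while 11.4% of all genes were higher and 13.1% lower. When 1 ewe at a time was left out, the list gave 2 to 4 rises and 1 to 6 falls against the mean of the classes, with 2 falls without HLS1 or HLS3 and 1 without LLS3.

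The members were not alike among themselves. APLN was the only gene of the 3 in 104 members, and 101 held a UMI of TNFRSF11B or MASP1. The first kind made up 4 of 12, 45 of 57 and 9 of 25 members in HLS1, HLS2 and HLS3 and 20 of 47, 2 of 4 and 24 of 60 in LLS1, LLS2 and LLS3. Members with APLN alone had a median depth of 10879 UMI against 14551 in the others, although they were the deeper kind in LLS2 (13495.5 against 12775.5) and LLS3 (10877 against 10228), and a missing UMI at this depth does not show that a gene was absent. The split was made after the values were seen and uses genes of the rule, so the values below carry no test.

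ADAMTS5 stood at 0, 77.5, 81.8, 37.3, 333 and 67.2 CPM in members with APLN alone and at 651, 597, 653, 864, 626 and 443 CPM in those with TNFRSF11B or MASP1, in the order HLS1 to HLS3 and LLS1 to LLS3. LTBP1, which codes for a microfibril protein that binds latent TGF-beta, stood at 0, 87.4, 389, 187, 889 and 409.7 CPM and 2291, 1371, 1683, 2038, 2818 and 1733 CPM in the same order. Both genes were higher in the second kind in 6 of 6 ewes, and for both the ranges of the ewes did not overlap. After thinning to 3000 UMI, ADAMTS5 was still found in 59.0% of the second kind and 12.5% of the first.

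Most tip genes were lower in the second kind. DLL4 stood at 136, 123, 92.1, 58.1, 74.1 and 70.5 CPM in members with APLN alone and at 11.04, 55.3, 5.15, 2.70, 0 and 33.3 CPM in the others. ANGPT2 stood at 87.1 to 408 CPM and 0 to 71.9 CPM, and PDGFB at 111 to 286 CPM and 5.52 to 116 CPM. Of the 30 tip genes, 24 had a lower pooled level in members with TNFRSF11B or MASP1, 8 of these in every ewe (ANGPT2, DLL4, PDGFB, NID2, FSCN1, ADM, MCAM and ROBO4), while VEGFC and SOX4 were higher there in every ewe. Of all 10446 genes 46.3% had a lower pooled level there and 2.29% were lower in every ewe. HLS2 made up 41.6% of the pooled UMI of members with APLN alone and 11.1% of those of the others. All 23 cell cycle genes had a higher pooled level in members with TNFRSF11B or MASP1, 0 of them in every ewe, and 37.6% of these members were cycling and 3.96% were marked as doublets, against 24.0% and 10.6% of members with APLN alone. The part of these differences in the contrast was not tested.

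ESM1, the secreted proteoglycan endocan, stood at 81.8 to 227 CPM in members with APLN alone and at 0 to 32.4 CPM in the others. The transcription factor ETS1 stood at 471 to 1630.2 CPM and 157 to 645 CPM, and KDR at 266 to 797 CPM and 93.8 to 352 CPM. All 3 were lower in members with TNFRSF11B or MASP1 in 6 of 6 ewes. The venous regulator NR2F2 stood at 68.1 to 240.5 CPM and 246 to 509 CPM and was higher there in 6 of 6 ewes.

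**Figure D3:**
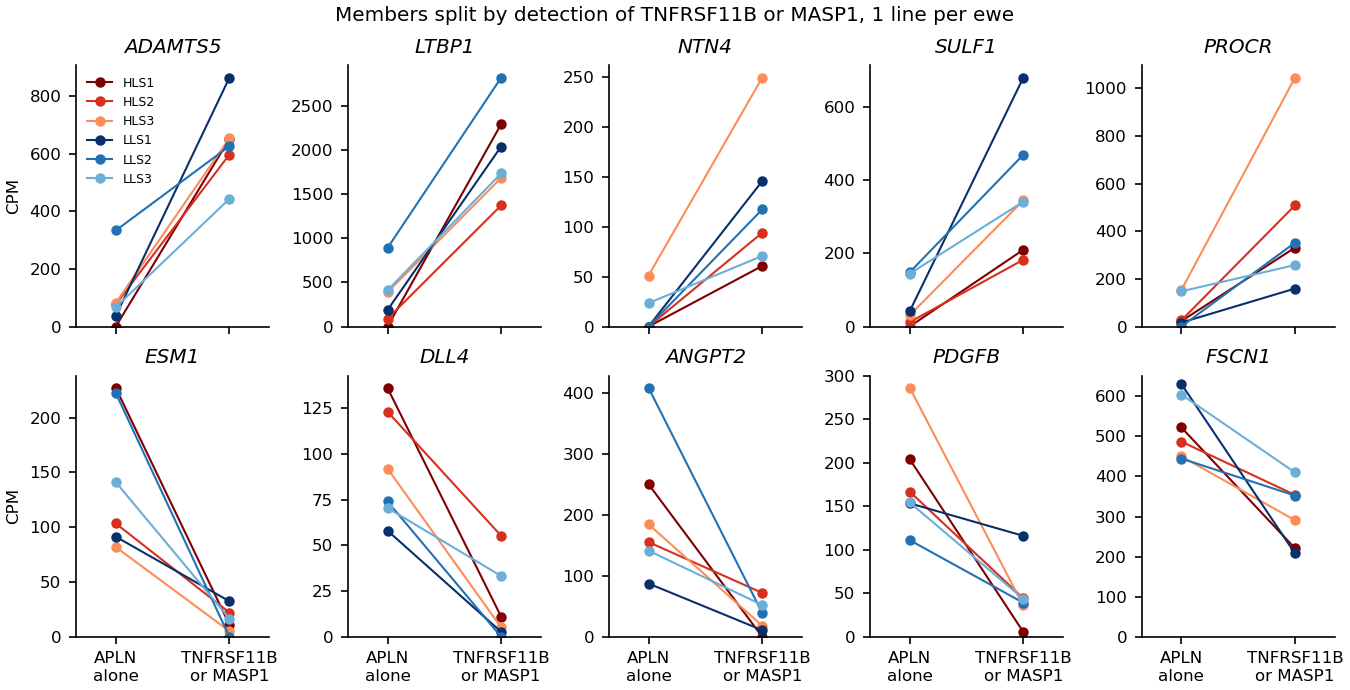
CPM of 10 genes in the members with APLN alone and in those with a UMI of TNFRSF11B or MASP1, 1 line per ewe. ADAMTS5, LTBP1, NTN4, SULF1 and PROCR are higher in the second kind in all 6 ewes, and ESM1, DLL4, ANGPT2, PDGFB and FSCN1 are lower in all 6.

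The largest rises in members were those of NTN4, LTBP1 and ELN, whose products lie in the extracellular matrix. Against the mean of the 3 classes, 1031 of 10446 genes were higher in members and 995 lower (edgeR quasi-likelihood test on summed UMI with the ewe as a term, Benjamini-Hochberg adjusted p under 0.05). The members and the classes are gates on the same barcodes and the 12 genes were picked from these cells, so this test says how alike the difference was among ewes and is no independent evidence that the members form a class. Among genes with a symbol and at least 20 CPM in members or in the mean of the classes, 131 rose against each class and in each of the 5 ewes. By the same conditions 90 fell. Without HLS3 1283 genes were called and without LLS3 1053, against 2026 with all ewes. With no filter on low counts 767 genes were higher and 1286 lower, and against all other blood endothelial barcodes 404 were higher and 618 lower. In an alternative chosen after seeing the data, 1007 genes were called without the barcodes that held at least 3 UMI of the cycle genes MKI67, TOP2A and CENPF.

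LTBP1 stood at 1843, 427 and 1423 CPM in HLS1, HLS2 and HLS3 and 1308, 1827 and 1227 CPM in LLS1, LLS2 and LLS3 in members, and at 19.2 ± 14.8 CPM in the ESM1 class, 101 ± 39.2 CPM in the SELP class and 103 ± 57.7 CPM in the CA4 class (mean ± SD, n = 6 ewes). The log2 difference was 4.54 ± 0.25, adjusted p = 1.39e-10 (SE, 5 ewes, edgeR), with no overlap between members and any class. ELN, which encodes elastin, stood at 1749.5, 39.5 and 129.5 CPM in HLS1, HLS2 and HLS3 and 278, 0 and 141 CPM in LLS1, LLS2 and LLS3, with a difference of 3.84 ± 0.58, adjusted p = 1.24e-04 (edgeR). HLS1 carried most of the ELN signal, while HLS2 lay within the range of the other classes and LLS2 had no UMI.

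NTN4, a netrin that lies in basement membranes, stood at 48.8, 24.9 and 209.7 CPM in HLS1, HLS2 and HLS3 and 88.3, 57.1 and 52.7 CPM in LLS1, LLS2 and LLS3 in members and at 3.09 ± 4.22 CPM in the ESM1 class, 4.19 ± 2.53 CPM in the SELP class and 4.48 ± 4.94 CPM in the CA4 class. Its log2 difference of 4.82 ± 0.37, adjusted p = 1.73e-08 (edgeR) was the largest rise among named genes. SULF2 and SULF1, secreted enzymes that remove sulfate groups from heparan sulfate, rose by 3.74 and 3.14. SULF1 stood at 169, 57.0 and 282 CPM in HLS1, HLS2 and HLS3 and 429, 305 and 266 CPM in LLS1, LLS2 and LLS3, and both were lowest in HLS2. The metalloproteinase MMP16 rose by 2.98, the secreted ADAMTS-like protein ADAMTSL1 by 3.17 and the matricellular protein CCN3 by 2.87.

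PROCR, the endothelial protein C receptor, stood at 271, 154 and 865 CPM in HLS1, HLS2 and HLS3 and 103, 171 and 216 CPM in LLS1, LLS2 and LLS3 in members and at 31.3 ± 24.9 CPM in the ESM1 class, 21.7 ± 2.60 CPM in the SELP class and 39.0 ± 23.0 CPM in the CA4 class, and rose by 3.36 ± 0.34, adjusted p = 7.76e-07 (edgeR). The scavenging chemokine receptors ACKR3 and ACKR4 rose by 2.95 and 3.19, with ACKR3 at 148 to 568 CPM in members. OLR1, the receptor for oxidised LDL, rose by 3.72, but it stood at 86.7 CPM in LLS1 and at 0 to 27.0 CPM in the other ewes, and against all other blood endothelial barcodes the difference was 1.92 with adjusted p = 0.118 (edgeR). EGLN3, a prolyl hydroxylase that acts on hypoxia-inducible factors, rose by 3.40, the membrane-anchored protein LYPD1 by 3.15 and the tyrosine phosphatase PTPRR by 2.84. HLS2, in which most members held APLN alone, had the lowest member level of LTBP1, SULF1, SULF2, MMP16 and ACKR3 among the 6 ewes.

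All 15 of these rises had a higher pooled level in members with TNFRSF11B or MASP1 than in those with APLN alone, and 9 of them did so in every ewe, beside 53.7% and 3.33% of all genes. NTN4 stood at 60.7 to 249.6 CPM in the former and at 0 in 4 of the 6 ewes in the latter. PROCR stood at 159 to 1045 CPM and 0 to 153 CPM. In pooled UMI, SULF1 stood at 389 CPM in the former and 54.5 CPM in the latter, and ELN at 452 CPM and 23.1 CPM.

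Among the genes that fell, LIFR, the receptor for leukaemia inhibitory factor, stood at 293, 482 and 232 CPM in HLS1, HLS2 and HLS3 and 314, 305 and 393 CPM in LLS1, LLS2 and LLS3 in members and at 784 ± 235 CPM in the ESM1 class, 1122 ± 292 CPM in the SELP class and 863 ± 235 CPM in the CA4 class, and fell by 1.42 ± 0.18 on the log2 scale (SE, adjusted p = 1.76e-05, edgeR). EPHX1, an epoxide hydrolase, stood at 0 to 39.3 CPM in members and at 103 ± 42.0 CPM in the ESM1 class, 49.9 ± 9.70 CPM in the SELP class and 54.1 ± 14.7 CPM in the CA4 class. EFNB2 stood at 18.5 to 83.3 CPM in members and at 229.6 ± 65.1 CPM in the ESM1 class, 107 ± 19.4 CPM in the SELP class and 151 ± 87.1 CPM in the CA4 class. Both overlapped the SELP and CA4 classes across ewes, and both were lower in members within each of 5 ewes. BTNL9, a butyrophilin-like membrane protein, had 12 UMI in all members and its fitted difference was -3.16. CA2, a carbonic anhydrase, also had 12 UMI, with -2.58. TMEM37 (-1.99), the phosphodiesterase PDE2A (-1.93), CRACR2B (-1.62), the exchange factor RAPGEF4 (-1.46) and CSRNP2 (-1.36) completed the 10 largest falls, and each was lower in 5 of 5 ewes.

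**Figure D4:**
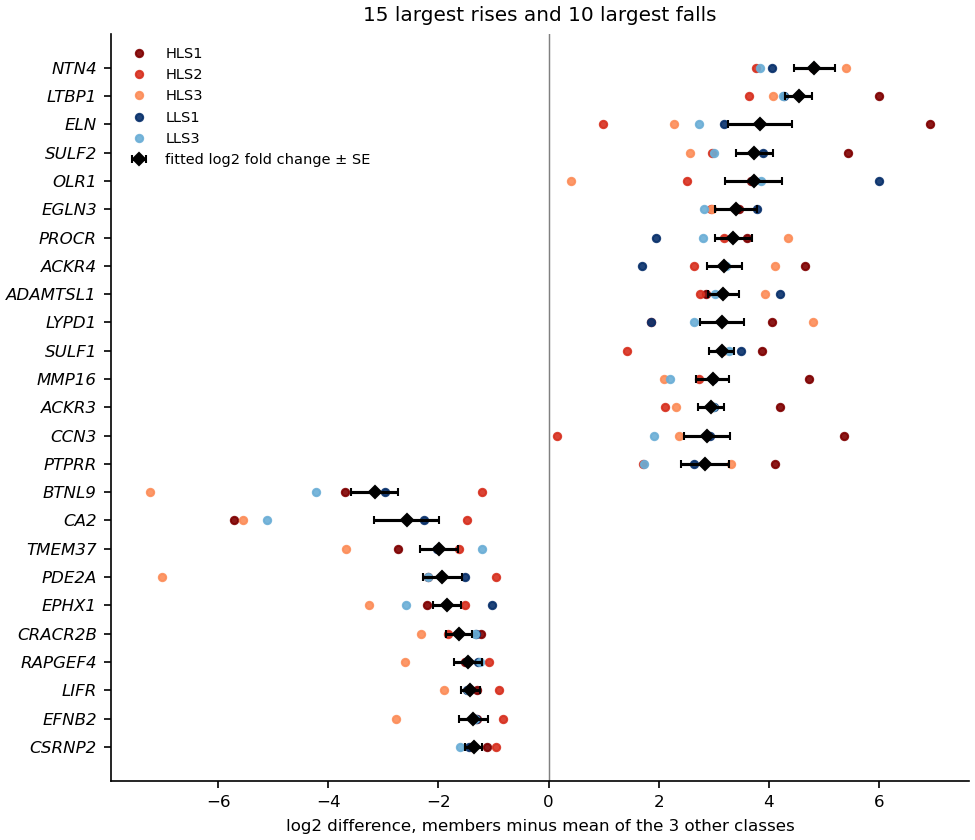
Log2 difference between members and the mean of the 3 other classes for the 15 largest rises and 10 largest falls. Black diamonds are the edgeR estimate with its SE, and coloured points are the 5 ewes with at least 10 members, each on the same side of 0 as the estimate.

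By class, calls were fewest against the ESM1 class, with 618 genes higher in members and 430 lower. Against the SELP class 1772 genes (17.0%) were higher and 1833 (17.5%) lower, and against the CA4 class 1186 (11.4%) were higher and 1365 (13.1%) lower. The ESM1 class count was 672 in all without LLS1 and the SELP and CA4 counts were 2259 and 1314 without LLS3. The classes held 902 to 7457 barcodes, and with all sums of an ewe thinned to the same UMI total 643, 2318 and 1891 genes were called against the ESM1, SELP and CA4 classes, in the same order as before.

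Proteases and their inhibitors mostly rose or were not called. In the proteolysis list 7 of 26 tested genes rose and 1 fell (9.87% and 9.53% of all genes), with a median of 0.41, and 6 to 8 rises and 1 to 2 falls were called when 1 ewe was left out. Beside MMP16 and ADAMTSL1, the membrane proteases ADAM19 (2.57) and ADAM15 (0.70), the metalloproteinase MMP15 (0.94) and the inhibitor TIMP2 (0.83) rose, whereas the aggrecanase ADAMTS4 fell by 1.06. ADAM19 stood at 31.1, 52.6 and 117 CPM in HLS1, HLS2 and HLS3 and 57.2, 152 and 105 CPM in LLS1, LLS2 and LLS3 in members and 27.1 ± 19.8 CPM in the ESM1 class, 8.84 ± 3.30 CPM in the SELP class and 11.8 ± 7.44 CPM in the CA4 class.

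In the basement membrane list (9.87% of all genes rose and 9.53% fell) 6 of 24 tested genes rose and 1 fell, with a median of 0.15, and 4 to 6 rises and 1 fall were called when 1 ewe was left out. Against the ESM1 class 3 genes were higher and 6 lower (5.92% and 4.12% of all genes), with a median of -0.23. COL8A1, a short-chain collagen of vessel walls, rose by 2.12 and stood at 17.8, 42.4 and 14.4 CPM in HLS1, HLS2 and HLS3 and 283, 0 and 15.4 CPM in LLS1, LLS2 and LLS3, so that LLS1 was far above the other ewes. FBLN2 rose by 2.27, LAMA4 by 0.63, SPARC by 0.61 and HSPG2, the proteoglycan perlecan, by 0.58. SPARCL1 fell by 1.18. Against the ESM1 class, the laminin gene LAMA4 (-0.23), SPARC (0.07) and HSPG2 (-0.04) did not pass the test, and their called differences were those against the SELP and CA4 classes.

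Venous genes were mixed and no arterial gene rose. In the arterial list 0 of 14 tested genes rose and 3 fell, with a median of -0.94, and the falls were EFNB2, DEPP1 (-0.99) and NEBL (-2.13), of which 1 was called without HLS3 or without LLS3. The median of the list was -0.44 without LLS3 and -0.23 without the cycling barcodes, where 1 of 13 genes fell. Of all genes 9.87% rose and 9.53% fell. In the venous list 5 of 11 tested genes rose and 2 fell, with a median of 0.14, and against all other blood endothelial barcodes 2 of 12 rose and 2 fell. When 1 ewe was left out, 4 to 5 venous genes rose and 1 to 2 fell, and the median ran from -0.03 to 0.60. Against the ESM1 class 7 were higher and 1 lower (median 0.94), beside 5.92% and 4.12% of all genes. Against the SELP class 2 were higher and 5 lower (-0.44), beside 17.0% and 17.5%, and against the CA4 class 3 were higher and 4 lower (-0.44), beside 11.4% and 13.1%. EPHB4, the venous receptor for ephrin-B2, stood at 88.8, 102 and 82.2 CPM in HLS1, HLS2 and HLS3 and 128, 95.2 and 119 CPM in LLS1, LLS2 and LLS3 in members and at 54.0 ± 6.92 CPM in the ESM1 class, 45.6 ± 9.97 CPM in the SELP class and 53.0 ± 17.2 CPM in the CA4 class, and rose by 0.997 ± 0.13, adjusted p = 1.69e-05 (edgeR), higher in 5 of 5 ewes. ADGRG6 rose by 2.39, TLL1, a protease that processes matrix proteins, by 1.94, ACKR1 by 1.83 and NR2F2 by 0.65. For ADGRG6 and ACKR1 the difference was called against the ESM1 class (6.30 and 5.35) and not against the SELP class (0.33 and -0.42).

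NOTCH genes moved in both directions, with 3 rises and 5 falls among 12 tested genes (9.87% and 9.53% of all genes) and a median of -0.32. The ligand JAG1 stood at 239.8, 136 and 226 CPM in HLS1, HLS2 and HLS3 and 193, 266 and 167 CPM in LLS1, LLS2 and LLS3 in members and rose by 0.72, and the glycosyltransferases LFNG and MFNG, which tune the receptors, rose by 0.65 and 0.33. The ligands DLL4 and JAG2 (-1.33), the receptors NOTCH1 (-0.81) and NOTCH4 (-0.70) and the target HES1 (-0.38) fell. DLL1 (0.50), HEY1 (-0.35), HEYL (0.05) and the nuclear mediator RBPJ (-0.29) were not called, and NOTCH2, NOTCH3, HES4 and HEY2 were below the filter on low counts. There was 1 rise without HLS1, and there were 3 falls without LLS1 and 2 without LLS3.

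Of the VEGF and angiopoietin genes, 4 of 12 rose and 2 fell (9.87% and 9.53% of all genes), and only 1 rise was called without HLS1, without LLS1 or without LLS3 and only 1 fall without HLS1, HLS3, LLS1 or LLS3. Among the ligands, VEGFC stood at 17.8, 33.6 and 41.1 CPM in HLS1, HLS2 and HLS3 and 68.7, 133 and 113 CPM in LLS1, LLS2 and LLS3 in members, and VEGFA fell by 0.85. Among the receptors, FLT1, which binds VEGFA and limits its signal, fell by 0.91, and TEK, the angiopoietin receptor, rose by 0.46. The phosphatase PTPRB, which acts on TEK, rose by 0.46. VEGFB (-0.09), FLT4 (-0.28) and TIE1 (-0.32) were not called, and VEGFD, ANGPT1 and ANGPT4 were below the filter.

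Cell cycle genes were called against the SELP and CA4 classes, while 0 were called against the ESM1 class. In this list 12 of 23 tested genes rose and 0 fell against the mean of the classes, with a median of 1.28, beside 9.87% and 9.53% of all genes, and DESeq2 called 6 rises. The counts were 17 of 23 against the SELP class (17.0% of all genes higher), 15 against the CA4 class (11.4%) and 0 against the ESM1 class (5.92%). TOP2A, which untangles DNA before division, stood at 8.88, 482 and 516 CPM in HLS1, HLS2 and HLS3 and 183, 0 and 579 CPM in LLS1, LLS2 and LLS3 in members, and CENPE, a kinetochore motor, rose by 1.72. At least 3 UMI of MKI67, TOP2A and CENPF were held by 1 of 12, 11 of 57 and 11 of 25 members in HLS1, HLS2 and HLS3 and by 11 of 47, 0 of 4 and 29 of 60 in LLS1, LLS2 and LLS3. Over all ewes this was 30.7% of members, 18.6% of the ESM1 class, 4.96% of the SELP class and 4.88% of the CA4 class. Within ewes, members were above the ESM1 class in HLS2, HLS3 and LLS1 (19.3, 44.0 and 23.4% against 14.04, 28.1 and 19.6%) and below it in HLS1, LLS2 and LLS3 (8.33, 0 and 48.3% against 24.4, 26.5 and 53.0%). Without LLS3, which held 29 of these 63 members, 4 cell cycle genes rose, and without the cycling barcodes of all classes 1 of 11 tested genes rose.

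Of 16 immediate early genes, which stress during digestion can induce, 9 fell in members and 0 rose against the mean of the classes, with a median of -0.55, beside 9.53% and 9.87% of all genes. Against the SELP class and against the CA4 class 15 fell and 0 rose in each case (17.5% and 13.1% of all genes fell), and against the ESM1 class 1 fell and 1 rose. JUND stood at 1155, 1727 and 732 CPM in HLS1, HLS2 and HLS3 and 1418, 875 and 674 CPM in LLS1, LLS2 and LLS3 in members and 1157 ± 506 CPM in the ESM1 class, 2184 ± 226 CPM in the SELP class and 2147 ± 429 CPM in the CA4 class, and BTG2 (-0.95), EGR3 (-1.28) and IER2 (-0.75) fell as well. Without HLS2 and LLS1 together 14 of the 16 genes fell, with no filter on low counts 15, without HLS3 or LLS3 6 and without the cycling barcodes 7. The part that handling had in the differences between classes was not tested.

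In the glycolysis list 7 of 17 tested genes rose and 2 fell (9.87% and 9.53% of all genes), among them the enolase ENO1 (0.51), the phosphofructokinase PFKL (0.60) and the kinase PGK1 (0.48), while the glucose transporter SLC2A1 fell by 1.06 and the regulator PFKFB3 by 0.91. None of the rises was called against the ESM1 class, and 3 were called without HLS3 or LLS1 and 4 without LLS3, while neither fall was called without LLS3 or without the cycling barcodes. Against all other blood endothelial barcodes 1 gene of the list rose and 0 fell. Of 27 transcription factors 9 fell and 4 rose, while 9.53% of all genes fell and 9.87% rose. ETS1 stood at 391, 859.7 and 220.0 CPM in HLS1, HLS2 and HLS3 and 808, 1009 and 592 CPM in LLS1, LLS2 and LLS3 in members and 1132 ± 167 CPM in the ESM1 class, 1194 ± 155 CPM in the SELP class and 1162 ± 207 CPM in the CA4 class, and EPAS1, which codes for a hypoxia-inducible factor, fell by 1.16. MEOX2 rose by 2.26 and FOXC2 by 1.02, both at low levels, and 2 factors rose without LLS1 or without LLS3.

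For the hypoxia, BMP and TGF-beta, capillary, guidance, stalk and adhesion lists, the shares of all genes to set beside the counts are 9.87% for rises and 9.53% for falls. In the hypoxia list 1 of 14 tested genes rose and 3 fell, EGLN3 against VEGFA, SLC2A1 and P4HA1, with 1 fall without HLS1 or without LLS3. Without the cycling barcodes 1 of 13 tested genes of this list rose and 0 fell. The BMP and TGF-beta list had 1 rise, the ligand TGFB2 (1.71), and 4 falls among 20 genes, which included the receptor TGFBR2 (-0.88) and the inhibitory SMAD7 (-0.77). TGFB2 stood at 44.4, 42.4 and 275 CPM in HLS1, HLS2 and HLS3 and 88.3, 209 and 75.8 CPM in LLS1, LLS2 and LLS3, highest in HLS3. Without LLS3, 2 genes of the list rose and 2 fell. In the capillary list 3 of 13 tested genes rose and 3 fell, with RGCC (-1.09) lower and TMEM100 (1.73) and the caveolar proteins CAV1 (0.89) and CAV2 (0.77) higher. In the guidance list 3 of 16 tested genes rose and 4 fell, with the semaphorin SEMA6D (0.58) higher and EFNA1 (-1.11) lower, and 2 genes fell without HLS3 or without LLS3.

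In the stalk and phalanx list 3 of 14 tested genes rose and 6 fell, with the junction protein CLDN5 (-1.26) and the cycle inhibitor CDKN1A (-1.11) lower and 1 rise without LLS1. Against the ESM1 class 5 of these genes were higher and 2 lower (5.92% and 4.12% of all genes). In the adhesion and inflammation list 2 of 13 tested genes rose and 2 fell, with ALCAM (0.54) higher and JAM2 (-1.42) lower. Of 7 tested genes that act with osteoprotegerin or in its family, 2 fell and 0 rose (9.53% and 9.87% of all genes), and 1 fell without HLS1, HLS3, LLS1 or LLS3. TNFSF10, which encodes the osteoprotegerin ligand TRAIL, fell by 1.24 and stood at 35.5, 83.3 and 6.17 CPM in HLS1, HLS2 and HLS3 and 24.5, 0 and 95.1 CPM in LLS1, LLS2 and LLS3, and TNFRSF1B fell by 0.99. Of 6 tested lectin and complement genes 1 rose and 1 fell (9.87% and 9.53% of all genes). The complement inhibitor CD55 rose by 1.52 and CFD, the protease of the alternative pathway, fell, with 2 UMI in all members and a fitted difference of -4.30 that depends on the prior count. Its fall was not called without HLS3, LLS1 or LLS3, with doublets removed or without the cycling barcodes.

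**Figure D5:**
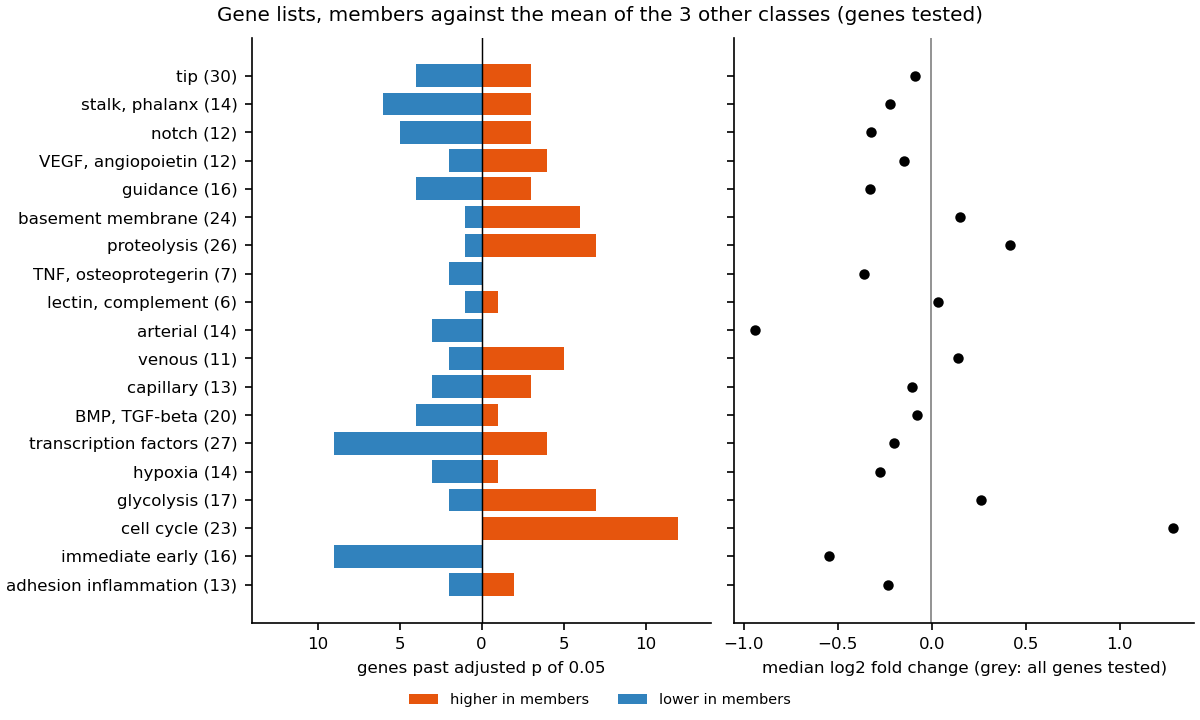
Left, number of genes in each list that were higher (orange) or lower (blue) in members than in the mean of the 3 other classes at an adjusted p under 0.05, with the number tested in brackets. Right, median log2 fold change of the list, with that of all 10446 genes as a grey line. The cell cycle list has the largest number of rises (12 of 23), and the tip list is split.

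Markers of other cell types were read in the same sums. The summed CPM of 7 stromal markers was 138, 92.1, 343, 85.0, 190.3 and 83.5 in members of HLS1 to HLS3 and LLS1 to LLS3, led by COL1A1 and with TCF21 at 0, against 6879 to 19570 CPM in stromal barcodes. That of 10 immune markers did not pass 67.8 CPM. That of 10 perivascular markers, led by the smooth muscle gene TAGLN and with KCNJ8 at 0, was 53.3, 70.2, 1184, 44.2, 171 and 100.2, so that HLS3 stood apart with TAGLN at 648 CPM. HLS3 also had the highest member level of PROCR, NTN4, EGLN3 and TGFB2. None of these 3 lists had a gene called against the mean of the classes, although under some alternatives up to 1 gene of a list rose and up to 4 fell, and the part of mural RNA in the values of HLS3 was not tested.

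Lymphatic markers summed to 964, 567, 619, 510.3, 1275 and 744 CPM in members, in the same order of ewes, and to 4156 to 15723 CPM in lymphatic barcodes. LYVE1, a hyaluronan receptor, made up most of it, stood at 915, 489.8 and 590.0 CPM in HLS1, HLS2 and HLS3 and 458, 1237 and 694 CPM in LLS1, LLS2 and LLS3 and rose by 1.30 ± 0.15, adjusted p = 8.19e-06 (edgeR), while the defining lymphatic factor PROX1 stood at 19.0 to 44.4 CPM in members and 1085 CPM on average in lymphatic barcodes. CCL21 did not pass 5.14 CPM in members. MMRN1, which the rule limited, stood at 17.8, 1.46 and 6.17 CPM in members of HLS1, HLS2 and HLS3. It stood at 3.27, 57.1 and 3.85 CPM in those of LLS1, LLS2 and LLS3, from 16 UMI in all. Its level was 0 to 1.84 CPM in the ESM1 class, 2.03 to 14.1 CPM in the SELP class and 0 to 4.99 CPM in the CA4 class. Members were above each class in every ewe but HLS2, and the part of lymphatic RNA was not tested. NTN4, ELN, LTBP1 and PROCR were also present in lymphatic barcodes, at means of 64.0, 305, 291 and 108 CPM, whereas APLN and SULF1 stood there at 3.204 and 11.03 CPM.

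CYP11A1, which starts steroid synthesis from cholesterol, stood at 439.6, 145 and 409 CPM in HLS1, HLS2 and HLS3 and 478, 818 and 256 CPM in LLS1, LLS2 and LLS3 in members and at 33.9 ± 34.8 CPM in the ESM1 class, 114 ± 21.6 CPM in the SELP class and 195 ± 53.0 CPM in the CA4 class, and rose by 2.18 ± 0.30, adjusted p = 3.91e-05 (edgeR). It made up most of the theca list, which summed to 484, 154, 483, 479, 818 and 281 CPM in members and to 354 to 999 CPM in stromal barcodes. Against the CA4 class alone the difference of 0.84 did not pass the test (adjusted p = 0.0948, edgeR). STAR, INSL3 and CYP17A1 were below the filter, with the first 2 found in members of 1 ewe each and CYP17A1 at 0 to 31.1 CPM, and the receptor LHCGR (0.96) was not called. In members with TNFRSF11B or MASP1 CYP11A1 stood at 325 to 1057 CPM, and in those with APLN alone at 0 to 593 CPM. The part of RNA from theca cells in this difference was not tested.

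Granulosa markers summed to 40.0, 78.9, 234, 34.3, 133 and 139 CPM in members, led by CDH2, which rose by 0.91 and stood at 134 CPM in HLS3. It was the one call of this list, and 0 were called without HLS3, without LLS1, without LLS3 or without the cycling barcodes. Epithelial and Schwann cell markers did not pass 16.1 CPM in sum, with MUC16 and CDH19 at 0, and of the 7 platelet and red cell markers in the files 6 were at 0.

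The study compared ewes of high and low litter size. Members made up 0.654%, 1.72% and 2.25% of the blood endothelial barcodes in HLS1, HLS2 and HLS3 and 1.21%, 0.316% and 1.92% in LLS1, LLS2 and LLS3. The groups overlapped, with means of 1.54% ± 0.814 (SD, n = 3) and 1.15% ± 0.805 (SD, n = 3), and the difference of 0.391 percentage points was within the spread of the ewes (two-sided exact permutation test, p = 0.6, the smallest possible with 3 against 3 being 0.1). It turned to -0.0558 when all barcodes within the limits were the denominator and to -0.0262 without LLS2. With barcodes thinned to 3000 UMI, which left 160 members, the difference was 0.0677.

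In edgeR no gene was called between HLS and LLS members. Of 7667 genes tested, 0 (0.0%) passed the adjusted threshold in edgeR with 3 HLS and 2 LLS sums, the smallest adjusted p being 0.9998, and 114 had an unadjusted p under 0.05. DESeq2 called 1 gene, the unnamed locus LOC114109642, chosen here after its values were seen, and edgeR called 35 genes with no filter on low counts and 13 with the replicate number as a block. The member levels of APLN, TNFRSF11B and MASP1 overlapped between the groups, each with an adjusted p of 0.9998 (edgeR). Members were chosen by these genes, so no conclusion is drawn from their levels. The sums held 12 to 60 barcodes, and the count of 0 does not show that the groups were alike.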

How the data were processed

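Single-cell 3' libraries were made from the ovaries of 6 ewes, and the authors aligned reads and counted UMI with Cell Ranger 5.0.0. The deposited values are raw UMI counts per gene and barcode, and the genome build is not given in the sources used here. The libraries held between 43329214 and 75549906 UMI. The members, the gene lists and the tests were chosen with earlier results of these data known.

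Barcodes were classed by the rule above, and raw counts were summed per ewe and class. Sums of at least 10 barcodes were kept, so 5 ewes in place of 6 entered the member comparisons. They were tested with edgeR 4.0.16 (TMM, filterByExpr, quasi-likelihood test, ewe as a term) in R 4.3.3, with Benjamini-Hochberg adjustment over all genes tested, while DESeq2 1.42.0 served as an alternative. The log2 differences of single ewes used a prior count of 2, and the fitted differences used the default prior count of edgeR. The 19 genes made up of the rule, its gates and ADAMTS5 are given without a test in the comparisons between classes. They were not taken out of the tests between HLS and LLS members. Doublets were scored with Scrublet in scanpy 1.11.5, the highest scores were marked at 0.8% per 1000 barcodes, and all were kept. Exact Clopper-Pearson intervals cover counting error only. The scripts were tested on simulated data.

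Named genes were the 15 largest rises and 10 largest falls called against the mean and each class and moving the same way in each of the 5 ewes with at least 20 CPM, the genes of the rule, tip, NOTCH and VEGF genes, and up to 5 called genes of each other list with the largest change. ADAM15, TIMP2, HSPG2, NR2F2, TOP2A and the uncalled markers of other cell types were named after their values were seen. Some genes of the lists are counted and not reported by name here. Each ewe is 1 library, so p-values measure the spread between these ewes. Barcodes are not replicates.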

Additional observations from a re-analysis of the deposited data

Results flagged for a closer look

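In 4 of the 26 measures read over the 5 ewes with at least 10 members, 1 ewe stood apart from the others by more than a rule for the gap to the nearest value allows, which chance gives for about 1 in 20 such groups. The log2 difference between members and the mean of the 3 classes was 5.99 for LTBP1 in HLS1 and 3.64 to 4.28 in the other 4 ewes. For PDE2A it was -7.02 in HLS3 and -2.20 to -0.96 elsewhere. The members of HLS3 held no UMI of PDE2A, so this value depends on the prior count. For RAPGEF4 it was -2.61 in HLS3 and -1.51 to -1.09 elsewhere, and for EFNB2 it was -2.77 in HLS3 and -1.34 to -0.82 elsewhere.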

How the results depend on the processing

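Of the 25 named rises and falls, 362 of 363 pairs of gene and alternative kept direction and call, the exception being OLR1 against all other blood endothelial barcodes. Over all 95 named list genes 1278 of 1403 pairs did, 125 lost the call and 0 turned direction. Calls against the mean of the 3 classes came to 1007 without cycling barcodes, an alternative chosen after seeing the data, and to 1022 against all other blood endothelial barcodes, and they ran from 1053 (without LLS3) to 1970 when 1 ewe was left out. Against the ESM1 class they came to 643 in thinned sums and 678 without HLS2 and LLS1 together, and ran from 672 (without LLS1) to 955. Against the SELP class they came to 1979 without cycling barcodes and 2318 in thinned sums, and ran from 2259 to 3467. Against the CA4 class they came to 1451 without cycling barcodes and ran from 1314 to 2414. The share of members, 0.391 percentage points higher in HLS, turned to -0.0558 with all barcodes within the limits as denominator, and ran from -0.0262 (without LLS2) to 0.835 when 1 ewe was left out. This difference was 0.0677 with barcodes thinned to 3000 UMI. Between HLS and LLS members, 0 genes were called by edgeR, 35 with no filter on low counts, 1 by DESeq2 and 13 with the replicate number as a block (replicate block). Leaving out 1 ewe also gave 0, which says little, since without LLS1 or LLS3 a single LLS sum is left and is assumed to vary like the others. The samples share only a number, since the labels pair no ewes and only 2 pairs had member sums. With 2 LLS sums the deviations from their mean mirror each other, so their correlations with the HLS sums say nothing about pairing. The causes of these changes were not tested. The number of members per ewe, 4 to 60, limits every member value.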
